A study of Mus musculus with 14 samples.

Results

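The collagen chain genes were examined, that is, every gene of the count table whose symbol is Col, a type number, the letter a and a chain number. There were 30 of them among 19525 genes, 7 of fibrillar collagens, 4 of basement membrane collagen IV, 5 of collagen VI and 14 of other types. RNA was sequenced from 4T1 spheroids, small 3-dimensional aggregates of mouse mammary carcinoma cells (a triple-negative line), after 5 days in lung-like medium, which mimics the nutrients of the fluid between lung cells. All groups carried a lentiviral hairpin, in polyclonal cells selected with puromycin. Controls had a non-targeting hairpin, with 700 µM aspartate added (ASP shSCR, n = 4) or with no aspartate added (NoASP shSCR, n = 3). The knockdowns, both with 700 µM aspartate, targeted *Grin2d*, an NMDA receptor subunit that aspartate can activate (ASP shGRIN2D, n = 3), or *Dhps*, the first enzyme of hypusination, which activates the translation factor eIF5A (ASP shDHPS, n = 4). For all groups the culture medium also held Matrigel, rat collagen I protein and horse serum. The RNA was the cytosolic input of a polysome experiment, so these values are transcript levels, not translation or protein.

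Collagens are secreted proteins built from 3 chains wound into a triple helix. Fibrillar collagens form the cables of connective tissue, collagen IV forms the sheet under epithelia, collagen VI forms beaded filaments beside it, and the others include anchoring, fibril-surface and membrane-spanning types. In carcinomas, fibroblasts are the usual source of fibrillar collagen, whereas epithelial cells commonly make collagen IV. The study asked how aspartate acts through the NMDA receptor and hypusination on collagen synthesis by cancer cells.

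Library totals were 12731123 to 23231378 counts, of which collagen genes made up 0.0881% to 0.204%. *Dhps* was lower in the 4 ASP shDHPS libraries (5.46 to 9.08 CPM, counts scaled to library depth) than in the other 10 (16.7 to 23.8 CPM). *Grin2d*, a low gene, was at 2.06, 2.17 and 3.13 CPM in ASP shGRIN2D and at 3.23 to 4.16 CPM in ASP shSCR, but NoASP shSCR (3.05 to 6.95 CPM) and ASP shDHPS (2.21 to 4.59 CPM) reached into the knockdown's range. All 10 epithelial carcinoma markers were present, and they summed to 5363 to 5603 CPM over the shSCR groups, 4043 to 4363 CPM in ASP shGRIN2D and 4241 to 4974 CPM in ASP shDHPS. Of 8 fibroblast markers, 6 were in the table and summed to 169 to 295 CPM, nearly all of it *Thy1* (mean 166 CPM) and *Pdgfra* (29.1 CPM). Of the rest, *Dcn* had at most 1 count in any library, *Fap* at most 3, *Postn* at most 9 and *Fbln1* at most 33. Endothelial and leukocyte markers summed to at most 0.918 CPM. In such bulk samples fewer cells of a type and less RNA per cell cannot be told apart.

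Among the collagens the library ASP shDHPS replicate 1 stood apart. Its collagen genes summed to 895.5 CPM, against 1679 to 1917 CPM in the other 3 ASP shDHPS libraries and 1443 to 2003 CPM in the 7 shSCR libraries. It was low in every class, with 486.1 CPM of collagen IV where the rest of its group had 968.5 to 1146 CPM. Its total count of 19346701 and its mitochondrial share of 5.55% lay within the range of the other libraries. Over all genes it also had the highest value of the first principal component (27.6), followed by ASP shDHPS replicate 3 (19.1). It differed from the other ASP shDHPS libraries by 26.3 to 41.8 times the sampling variance, where these differed from each other by 7.69 to 17.0 times. Some shSCR replicates also differed that much, such as ASP shSCR 1 and 2 (34.9 times) and NoASP shSCR 2 and 3 (30.2 times). Where leaving out ASP shDHPS replicate 1 changed a call, a direction or the size of a value on ASP shDHPS, the value without it is mostly given too. Replicate 2 of both shSCR groups lay at the other end of that component (-25.8 and -19.7, the next at -8.66). In the collagen sum replicate 1 was also the lowest library of ASP shSCR (1443 CPM) and of ASP shGRIN2D (1535 CPM). NoASP shSCR had no replicate 1.

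The spheroids expressed few of these genes at a high level. Per kilobase of transcript, which allows levels of different genes to be compared, *Col4a1* was highest at 87.7 CPM per kb on average over 14 libraries. *Col18a1*, the precursor of endostatin and a collagen of epithelial basement membranes, followed at 78.1 CPM per kb, and *Col4a2* at 61.8 CPM per kb. The ranges of these genes over libraries overlapped. These 3 genes held 81.6% of all collagen counts. A gap then separated *Col6a1* (13.9 CPM per kb), *Col16a1* (13.8 CPM per kb), a fibril-associated chain, and *Col8a1* (12.2 CPM per kb), a short-chain network collagen, which did not differ from each other beyond their spread. *Col4a5* (5.34 CPM per kb), *Col5a1* (4.67 CPM per kb) and *Col7a1* (3.80 CPM per kb) completed the 9 collagens whose mean reached 5 CPM. Of the other 21 genes, *Col6a2* (0.975 CPM per kb) and *Col17a1* (0.811 CPM per kb), a hemidesmosome collagen, were the highest, and 19 had at most 60 counts in every library.

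**Figure D1:**
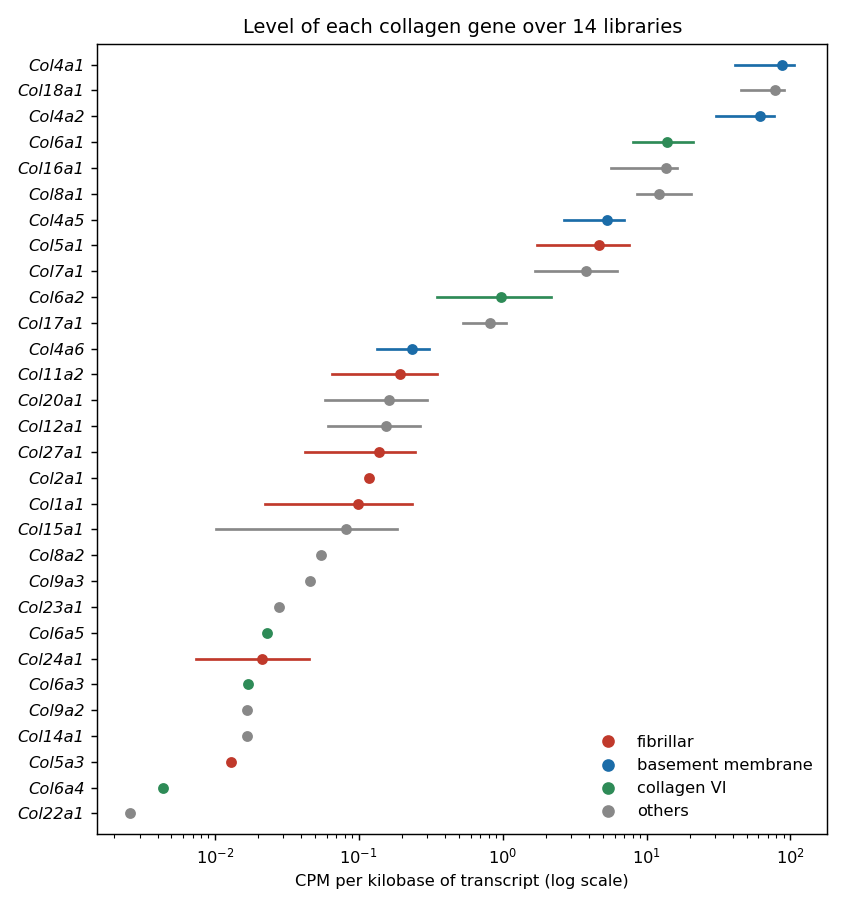
Mean level of each of the 30 collagen genes over 14 libraries in CPM per kilobase of transcript, on a log scale, coloured by class. Lines span the lowest to the highest library and are drawn only for genes with a count in every library. *Col4a1*, *Col18a1* and *Col4a2* stand above the rest at 61.8 to 87.7 CPM per kb, and 19 genes lie at or below 0.233 CPM per kb.

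By class, collagen IV held 58.5% of the collagen counts, the other types 35.5%, collagen VI 3.55% and the fibrillar chains 2.47%. The fibrillar share was almost all *Col5a1*, the chain of collagen V that starts fibril assembly. *Col1a1*, the main chain of collagen I, had 2 to 27 counts in a library and 0.0984 CPM per kb. *Col1a2*, *Col3a1* and *Col5a2* were not analysed here, so partners of *Col1a1* and *Col5a1* cannot be set beside them. Both chains of the common collagen IV molecule moved together across libraries. The ratio of *Col4a1* to *Col4a2* per kilobase lay between 1.29 and 1.51 in all 14 libraries (mean 1.42), also in ASP shDHPS replicate 1. Within this range ASP shGRIN2D (1.29 to 1.38) and ASP shSCR (1.45 to 1.51) did not overlap. NoASP shSCR was at 1.37 to 1.48 and ASP shDHPS at 1.36 to 1.47. The start sites of *Col4a1* and *Col4a2* are 21 bases apart on opposite strands in GRCm38. In collagen VI the chains were far from equal. *Col6a1* exceeded *Col6a2* by 9.62 to 28.1 times per kilobase, and the third chain of the molecule, *Col6a3*, had at most 6 counts in any library.

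**Figure D2:**
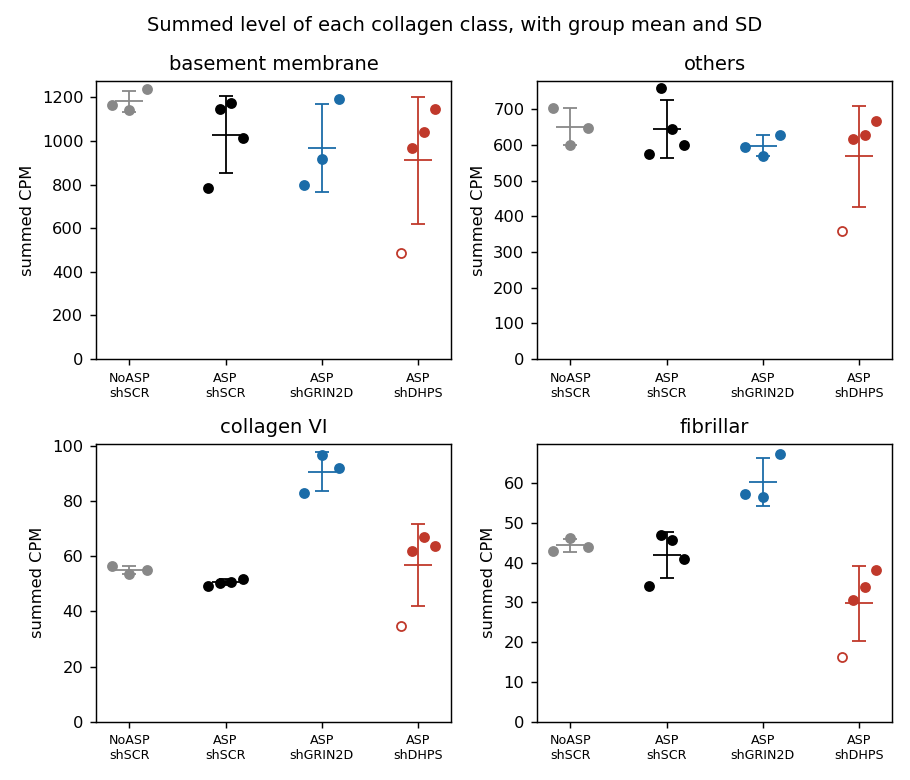
Summed CPM of each collagen class in each library (points), with the group mean (dash) and SD (bars). The open point is ASP shDHPS replicate 1. Collagen VI and fibrillar sums were highest in the 3 ASP shGRIN2D libraries (83.0 to 96.8 CPM and 56.5 to 67.3 CPM), and collagen IV sums overlapped between the 3 groups given aspartate.

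The summed level of collagen VI was 55.0 ± 1.54 CPM in NoASP shSCR (SD, n = 3), 50.5 ± 1.11 CPM in ASP shSCR (SD, n = 4), 90.6 ± 7.03 CPM in ASP shGRIN2D (SD, n = 3) and 56.8 ± 14.9 CPM in ASP shDHPS (SD, n = 4). Without replicate 1 the last value was 64.2 ± 2.51 CPM (SD, n = 3). Fibrillar chains summed to 44.3 ± 1.58, 42.0 ± 5.80, 60.4 ± 6.03 and 29.7 ± 9.51 CPM in the same order of groups. Collagen IV summed to 1181 ± 49.8, 1030 ± 178, 969 ± 202 and 911 ± 292 CPM, and the other types to 651 ± 52.0, 645 ± 81.8, 598 ± 29.9 and 568 ± 141 CPM. Without replicate 1 the ASP shDHPS sums were 34.2 ± 3.74 CPM for fibrillar chains, 1052 ± 89.2 CPM for collagen IV and 638 ± 27.0 CPM for the other types (SD, n = 3), so that the lowest group mean of collagen IV and of the other types rested on that library. Collagen VI and the fibrillar chains, which are the classes with the smaller sums, were thus the ones whose ASP shGRIN2D libraries did not overlap with either shSCR group. Sums over a class are given as a description, with no test.

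The collagens that passed the test in any comparison were *Col5a1*, *Col6a1*, *Col6a2* and *Col7a1*. The bases before their start sites are shown because the first 3 differed in the same direction between the knockdowns. RefSeq promoter windows of GRCm38.p6 matched 24 of the 30 collagens. The stretches end at the first annotated exon base, so that of *Col6a1* stops 124 bases before its start site. Capitals mark the motifs searched on both strands: the GC box GGGCGG, the CCAAT box CCAAT, the TATA box TATAAA, the AP-1 site TGANTCA, the cAMP response element TGACGTCA and the CAGA box CAGACA, which SMAD proteins can bind. Of the 32851 promoter windows in the table, 32.7%, 33.8%, 12.4%, 6.75%, 1.55% and 17.1% held each motif in this order. The stretches are Col5a1 at chr2:27886175-27886424 (+), Col6a1 at chr10:76726169-76726294 (-), Col6a2 at chr10:76623631-76623880 (-) and Col7a1 at chr9:108953336-108953585 (+), each written on its own strand.
Col5a1: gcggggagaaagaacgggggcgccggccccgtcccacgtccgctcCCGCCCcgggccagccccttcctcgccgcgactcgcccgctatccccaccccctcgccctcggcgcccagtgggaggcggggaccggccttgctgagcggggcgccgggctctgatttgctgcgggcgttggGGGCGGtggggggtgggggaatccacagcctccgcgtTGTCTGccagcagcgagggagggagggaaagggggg
Col6a1: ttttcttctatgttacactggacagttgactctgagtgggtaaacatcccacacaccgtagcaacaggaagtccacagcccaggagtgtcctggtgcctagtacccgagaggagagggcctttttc
Col6a2: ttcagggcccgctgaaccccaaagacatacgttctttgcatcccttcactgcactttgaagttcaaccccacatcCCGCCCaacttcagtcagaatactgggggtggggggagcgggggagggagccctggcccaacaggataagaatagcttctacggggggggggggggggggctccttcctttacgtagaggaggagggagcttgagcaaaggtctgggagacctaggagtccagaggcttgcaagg
Col7a1: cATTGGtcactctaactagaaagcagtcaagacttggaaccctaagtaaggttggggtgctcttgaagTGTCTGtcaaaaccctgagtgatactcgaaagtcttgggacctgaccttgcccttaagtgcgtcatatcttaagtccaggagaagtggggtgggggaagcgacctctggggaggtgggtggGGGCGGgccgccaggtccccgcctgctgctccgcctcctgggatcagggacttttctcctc

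The *Col5a1* stretch held 2 GC boxes and 1 CAGA box, that of *Col6a2* 1 GC box, and that of *Col7a1* 1 GC box, 1 CCAAT box and 1 CAGA box. The *Col6a1* stretch held none of these letters, but its full window of 250 bases held 1 AP-1 site. Another *Col6a2* window, which is not shown, held 3 GC boxes. The shares of all windows and the counts that follow are of full windows. Over all 26 windows of collagen genes, 18 held a GC box, 9 a CCAAT box, 6 a CAGA box, 2 a TATA box, 1 an AP-1 site and 0 a cAMP response element. The median GC content was 59.0% in the collagen windows and 52.4% in all windows. A match is a stretch of letters and no measured binding.

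The effect of added aspartate was read from ASP shSCR against NoASP shSCR. No collagen gene passed the test, as was the case for all genes (0 of 30, and 0% of 19525 by the edgeR quasi-likelihood test; smallest adjusted p 1 for the collagens). DESeq2 called 0 collagens as well, and with the replicate number as a block 2 of all genes were called, or 64 where only the 7 shSCR libraries were fitted, of which 0 were collagens. At an unadjusted p under 0.05 there were 2 of 29 collagens with a fold, *Col5a3* and *Col12a1*, against 2.19% of the 17274 genes with more than 3 counts in a library, and both were lower with aspartate. *Col12a1*, a fibril-surface collagen, was at 1.38 ± 0.504 CPM with (SD, n = 4) and 2.29 ± 0.668 CPM without aspartate (SD, n = 3).

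*Col4a1* was at 673.7, 648.7 and 703.4 CPM without aspartate and at 448.3, 659.4, 689.8 and 586.3 CPM with it. *Col4a2* was at 443.3, 457.2 and 499.6 CPM without and at 302.2, 440.6, 444.8 and 393.9 CPM with aspartate. In both, replicate 1 of ASP shSCR was the lowest of the 7 and the ranges overlapped. NoASP shSCR had no library of that number to set beside it. The log2 fold changes were -0.18 (95% interval -0.60 to 0.24) and -0.24 (-0.63 to 0.15). With 1 library left out at a time they ranged from -0.26 to -0.066 and from -0.30 to -0.13.

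*Col18a1* was at 472.1, 432.0 and 465.7 CPM without aspartate and at 406.3, 504.3, 454.7 and 422.9 CPM with it, a log2 fold change of -0.030 (-0.34 to 0.28). The libraries of both groups lay among each other. *Col6a1* was at 53.6, 49.0 and 49.0 CPM without aspartate and at 44.7, 48.3, 45.8 and 47.7 CPM with it. This was the 1 collagen whose CPM did not overlap, lower with aspartate, against 1.59% of genes that did not overlap in that direction. In the other direction there were 0 of 29 collagens against 1.30%. The difference of *Col6a1* was small (log2 fold change -0.12, -0.42 to 0.18; adjusted p = 1). *Col1a1* had 24, 7 and 8 counts without aspartate and 17, 19, 3 and 4 counts with it, and its interval of -1.54 to 0.97 spans both directions. The median log2 fold change was -0.11 over the 29 collagens and 0.0017 over the 17274 genes.

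The *Grin2d* knockdown was compared with ASP shSCR, so both groups had aspartate. *Col6a1*, the chain that every collagen VI molecule contains, was higher in ASP shGRIN2D, and its partner *Col6a2* and the fibrillar *Col5a1* were higher in every library without passing the test. For the collagen IV chains and *Col18a1*, which hold most of the collagen transcripts, no difference was detected. *Col6a1* was at 44.7, 48.3, 45.8 and 47.7 CPM in ASP shSCR and at 77.2, 86.1 and 83.9 CPM in ASP shGRIN2D. All 3 knockdown libraries lay above all 7 shSCR libraries. The log2 fold change was 0.82 (SE 0.14, adjusted p = 0.00276). It was the only collagen called, 1 of 30, where 1.16% of all genes were called and 0.425% were called higher.

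*Col6a2*, which encodes the second chain of collagen VI, was at 3.85, 1.95, 4.46 and 4.01 CPM in ASP shSCR and at 5.51, 10.2 and 7.53 CPM in ASP shGRIN2D. The groups did not overlap, although NoASP shSCR replicate 4 (5.50 CPM) came next to the lowest knockdown library. Its log2 fold change was 1.11 (0.47 to 1.75, adjusted p = 0.0950). *Col6a3* had 5, 2, 3 and 0 counts in ASP shSCR and 5, 6 and 6 counts in ASP shGRIN2D, too few to read a change. *Col6a4* had 4 counts in a single knockdown library and 0 in ASP shSCR. *Col6a5* had at most 9 counts anywhere.

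*Col5a1* was at 29.8, 43.0, 41.5 and 37.0 CPM in ASP shSCR and at 52.6, 53.1 and 63.1 CPM in ASP shGRIN2D. All knockdown libraries were above all shSCR libraries, with a log2 fold change of 0.57 (0.19 to 0.96, adjusted p = 0.184). *Col5a3*, another collagen V chain, was counted 2, 4 and 5 times in ASP shGRIN2D and not at all in ASP shSCR. Against a floor of 3 counts over the group it was at least 5.20-fold higher, but NoASP shSCR libraries also had 0, 3 and 4 counts. *Col1a1* had 17, 19, 3 and 4 counts in ASP shSCR and 27, 8 and 16 in ASP shGRIN2D, with overlapping CPM and an interval of -0.46 to 2.00 for the log2 fold change of 0.77. That fold was 0.41 when ASP shGRIN2D replicate 1 was left out, and leaving out ASP shSCR replicate 2 gave 1.23. *Col11a2*, a cartilage fibril chain, ranged from 0.393 to 2.11 CPM in ASP shSCR and from 0.939 to 2.06 CPM in ASP shGRIN2D.

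Lower in ASP shGRIN2D were *Col7a1*, the chain of the anchoring fibrils that tie epithelium to stroma, and *Col8a1*, both short of the test. *Col7a1* was at 37.1, 58.0, 43.9 and 41.8 CPM in ASP shSCR and at 25.0, 34.9 and 24.7 CPM in ASP shGRIN2D. The groups did not overlap, though NoASP shSCR replicates 3 and 4 (34.0 and 34.5 CPM) lay just below the highest knockdown library. The log2 fold change was -0.68 (-1.10 to -0.25, adjusted p = 0.140). The mean of *Col8a1* was 46.0 ± 2.13 CPM in ASP shGRIN2D (SD, n = 3) against 72.1 ± 21.7 CPM in ASP shSCR (SD, n = 4), with a fold of -0.65 on the log2 scale (adjusted p = 0.106). ASP shSCR replicate 2, at 104.6 CPM, was its highest library. Without it the fold was -0.41 (adjusted p = 0.311), and without both shSCR libraries numbered 2 it was -0.41 and passed (adjusted p = 0.0448).

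For *Col4a1* the ASP shGRIN2D libraries were at 440.5, 501.5 and 673.6 CPM and for *Col4a2* at 321.5, 379.2 and 474.5 CPM. They overlapped with ASP shSCR in both genes, with log2 fold changes of -0.15 (-0.57 to 0.27) and -0.013 (-0.41 to 0.38). *Col18a1* was at 435.2, 403.2 and 461.7 CPM (-0.045, -0.35 to 0.27). *Col16a1* was at 78.5, 78.3 and 84.2 CPM, within the ASP shSCR range of 63.9 to 84.9 CPM.

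Over the 29 collagens with a fold, 8 did not overlap and were higher in ASP shGRIN2D, against 6.21% of genes, and 3 were lower, against 7.16%. The 8 were *Col6a1*, *Col6a2*, *Col5a1*, *Col17a1*, *Col5a3*, *Col9a3*, *Col6a3* and *Col23a1*, and the last 4 had at most 12 counts in any library. *Col23a1* exceeded 3 counts in ASP shGRIN2D alone. The 3 were *Col7a1*, *Col8a1* and *Col27a1*. Among the 9 collagens whose mean reached 5 CPM, 2 were higher and 2 were lower without overlap, against 7.65% and 9.46% of genes at such levels. At an unadjusted p under 0.05 there were 10 of 29 collagens against 11.4% of genes. The median log2 fold change was 0.13 over the 29 collagens, -0.013 over those 9 and 0.0022 over all genes. Epithelial markers were lower in the same libraries, as given above, and their part in these differences was not tested. When each pair of groups was fitted alone, the collagens called were 5 instead of 1, adding *Col5a1*, *Col6a2*, *Col7a1* and *Col8a1*. Over all 19525 genes the calls were then 374 instead of 226.

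**Figure D3:**
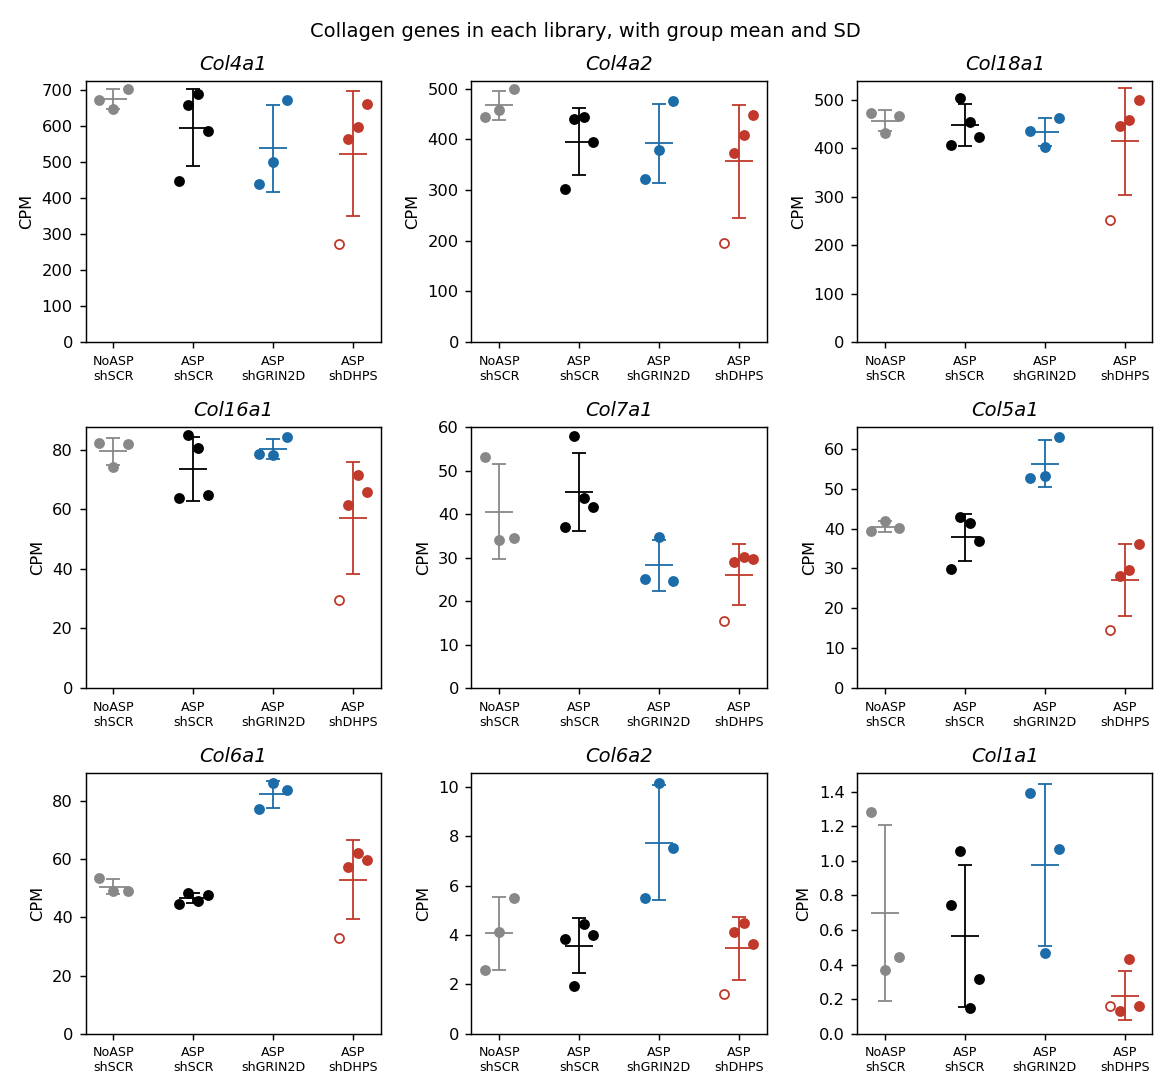
CPM of 9 collagen genes in each library (points) with the group mean (dash) and SD (bars). The y axes start at 0 and differ between genes, and the open point is ASP shDHPS replicate 1. *Col6a1* lies at 77.2 to 86.1 CPM in ASP shGRIN2D and at 44.7 to 53.6 CPM in the shSCR libraries, and *Col7a1* lies at 15.5 to 30.2 CPM in ASP shDHPS.

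Regarding the *Dhps* knockdown against ASP shSCR, *Col7a1*, which was lower, was the only collagen called, and which collagens passed depended on single libraries. It was at 15.5, 29.0, 30.2 and 29.7 CPM in ASP shDHPS and at 37.1, 58.0, 43.9 and 41.8 CPM in ASP shSCR. All ASP shDHPS libraries were below all 7 shSCR libraries. Its log2 fold change was -0.79 (SE 0.19, adjusted p = 0.0174). This was 1 of 30 collagens, where 4.22% of all genes were called and 2.57% were called lower. Without ASP shDHPS replicate 1 the fold was -0.61 (adjusted p = 0.0434). Without ASP shSCR replicate 2, its highest library, it was -0.65 and no longer passed (adjusted p = 0.0627).

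*Col5a1* was at 14.6, 28.2, 29.6 and 36.2 CPM in ASP shDHPS, where the highest library reached into the ASP shSCR range of 29.8 to 43.0 CPM. Its log2 fold change was -0.48 (-0.84 to -0.11, adjusted p = 0.132), and without replicate 1 it was -0.27 (adjusted p = 0.254). Without replicate 4, its highest ASP shDHPS library, it was -0.65 and passed (adjusted p = 0.0345). *Col16a1* was at 29.5, 61.6, 71.4 and 65.7 CPM, against 63.9, 84.9, 80.7 and 65.0 CPM in ASP shSCR, with overlap. Its fold of -0.37 (adjusted p = 0.239) was -0.15 without replicate 1.

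For *Col6a1* the ASP shDHPS libraries were at 32.9, 57.2, 62.0 and 59.7 CPM. Replicate 1 lay below all shSCR libraries and the other 3 lay above them. The log2 fold change was 0.18 (-0.092 to 0.46, adjusted p = 0.463) with all libraries, and 0.36 (adjusted p = 0.0153) without replicate 1, so that library decided the call. *Col6a2* was at 1.63, 4.13, 4.48 and 3.63 CPM, overlapping with ASP shSCR (-0.046, -0.67 to 0.58, and 0.19 without replicate 1).

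*Col4a1* in ASP shDHPS was at 271.9, 565.1, 597.4 and 660.8 CPM and *Col4a2* at 195.2, 373.7, 409.3 and 448.1 CPM. *Col18a1* was at 252.0, 446.8, 458.8 and 499.6 CPM. In all of these replicate 1 lay below the ASP shSCR range and the other 3 libraries within it, apart from replicate 4 in *Col4a2*, which lay just above it. The log2 fold changes were -0.19 (-0.57 to 0.20), -0.15 (-0.51 to 0.22) and -0.11 (-0.40 to 0.18). Without replicate 1 they turned to 0.029, 0.054 and 0.067.

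*Col1a1* had 3, 2, 8 and 3 counts in ASP shDHPS, that is 0.158, 0.133, 0.432 and 0.160 CPM, and 0.147 to 1.06 CPM in ASP shSCR. The groups overlapped, since ASP shSCR replicates 3 and 4 were at 3 and 4 counts, and the log2 fold change was -1.33 (-2.66 to -0.0068, adjusted p = 0.256). It was -1.20 without replicate 1 and -0.87 without ASP shSCR replicate 2. *Col5a3* had 1 count in 1 of the 4 ASP shDHPS libraries and *Col6a3* 0, 0, 4 and 3 counts. *Col11a2* was at 0.683, 1.07, 2.00 and 0.694 CPM, within the ASP shSCR range.

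In all, 7 of 29 collagens had an unadjusted p under 0.05 against 21.4% of genes. Of 29, 1 did not overlap and was higher (*Col9a3*, with at most 8 counts) against 5.88%, and 1 was lower (*Col7a1*) against 6.52%. The median log2 fold change was -0.11 over the collagens and 0.0032 over all genes. Without replicate 1 the collagen median was 0.067, and 3 collagens were higher without overlap (*Col6a1*, *Col17a1* and *Col9a3*) and 1 was lower, against 8.85% and 9.09% of genes.

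Both knockdowns were also compared with each other, a contrast that takes no level from the shSCR libraries. *Col5a1*, *Col6a1* and *Col6a2* were lower in ASP shDHPS than in ASP shGRIN2D. *Col5a1* was at 52.6, 53.1 and 63.1 CPM in ASP shGRIN2D and at 14.6, 28.2, 29.6 and 36.2 CPM in ASP shDHPS, with a wide gap between the groups. The log2 fold change was -1.05 (SE 0.19, adjusted p = 0.00201), and -0.84 (adjusted p = 0.000681) without replicate 1. For *Col6a1*, at 77.2, 86.1 and 83.9 CPM against 32.9, 57.2, 62.0 and 59.7 CPM, it was -0.64 (SE 0.14, adjusted p = 0.0133), and -0.47 (adjusted p = 0.00368) without replicate 1. *Col6a2* was at 5.51, 10.2 and 7.53 CPM against 1.63, 4.13, 4.48 and 3.63 CPM. Those groups did not overlap either, and its fold of -1.16 (SE 0.31, adjusted p = 0.0424) became -0.92 (adjusted p = 0.109) without replicate 1. The 3 called collagens, all lower, compare with 2.82% of all genes called and 1.62% called lower.

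*Col1a1* had 27, 8 and 16 counts in ASP shGRIN2D and 3, 2, 8 and 3 in ASP shDHPS. In CPM the lowest ASP shGRIN2D library (0.470) was just above the highest ASP shDHPS library (0.432). The log2 fold change was -2.10 (-3.45 to -0.75, adjusted p = 0.0937). *Col16a1* did not overlap either, with 78.3 to 84.2 CPM against 29.5 to 71.4 CPM (-0.49, adjusted p = 0.175, and -0.28 without replicate 1). No difference between the knockdowns was detected for *Col7a1* (-0.11, -0.54 to 0.31), *Col4a1* (-0.040, -0.46 to 0.38), *Col4a2* (-0.14, -0.53 to 0.26) or *Col18a1* (-0.065, -0.37 to 0.24). Without replicate 1 these folds turned to 0.072, 0.17, 0.0675 and 0.11.

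Of 29 collagens, 8 did not overlap and were lower in ASP shDHPS than in ASP shGRIN2D, against 8.28% of genes, and 1, *Col8a1*, was higher, against 8.52%. The 8 were *Col6a1*, *Col6a2*, *Col5a1*, *Col16a1*, *Col1a1*, *Col5a3*, *Col6a3* and *Col23a1*. Of these, *Col1a1* had at most 27 counts in any library, and *Col5a3*, *Col6a3* and *Col23a1* at most 12. *Col23a1* exceeded 3 counts in ASP shGRIN2D alone. Among the 9 collagens whose mean reached 5 CPM, 3 were lower and 1 was higher without overlap, against 10.3% and 11.2% of genes at such levels. An unadjusted p under 0.05 was found for 9 of 29, against 16.3%. The median log2 fold change was -0.37 over the 29 collagens and 0.0094 over all genes, and -0.14 over the 9 collagens whose mean reached 5 CPM. Without replicate 1 it was -0.19 over the 29 and 0.0675 over the 9. The counts of the 29 without overlap were then the same, against 11.8% of genes higher and 10.9% lower. Leaving out ASP shGRIN2D replicate 2 or 3 left 1 of the 3 calls, *Col5a1*, with *Col6a1* at -0.60 (adjusted p = 0.0656) and -0.62 (adjusted p = 0.0616). Over all genes 310 and 275 were then called, against 550 with every library.

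**Figure D4:**
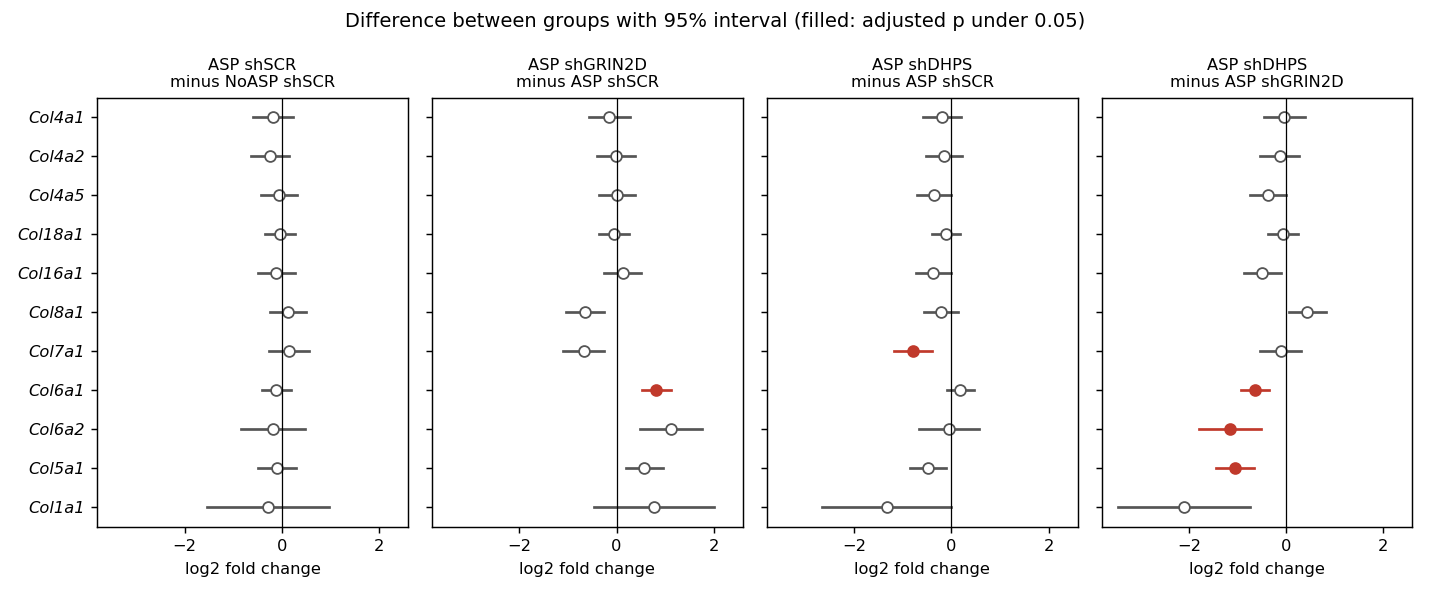
Log2 fold change of 11 collagen genes in the 4 comparisons (points) with the 95% interval (lines). Filled red points passed an adjusted p of 0.05, which were *Col6a1* in ASP shGRIN2D minus ASP shSCR, *Col7a1* in ASP shDHPS minus ASP shSCR, and *Col6a1*, *Col6a2* and *Col5a1* in ASP shDHPS minus ASP shGRIN2D.

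The genes named beyond those that were called, that led their class or that the study stained for (*Col2a1*, *Col4a5*, *Col8a1*, *Col9a3*, *Col12a1*, *Col17a1*, *Col23a1* and *Col27a1*) were chosen after their values were seen. *Col4a5*, a chain of the second collagen IV network, was at 32.4 to 44.5 CPM in ASP shSCR and 33.9 to 42.5 CPM in ASP shGRIN2D. In ASP shDHPS it was at 17.3 to 35.3 CPM, or 28.4 to 35.3 CPM without replicate 1. *Col17a1* was at 3.37 to 4.21 CPM in ASP shSCR and at 5.11 to 5.87 CPM in ASP shGRIN2D (log2 fold change 0.48, adjusted p = 0.398). *Col2a1*, the cartilage fibril chain, had 12 to 22 counts in ASP shSCR and 0 to 12 in ASP shDHPS. *Col22a1* had at most 3 counts in every library and is given no fold. The remaining *Col4a6*, *Col8a2*, *Col9a2*, *Col14a1*, *Col15a1*, *Col20a1* and *Col24a1* had at most 37 counts in any library, and none was called in any comparison.

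Collagen chains need a long line of helpers before they form a helix, and these were followed as lists. Of 19 genes for folding and hydroxylation in the endoplasmic reticulum, 18 were in the table. With aspartate 0 were called, in ASP shGRIN2D 1 was higher and in ASP shDHPS 3 were higher than in ASP shSCR, and 0 were lower, where 1.16% and 4.22% of all genes were called. The 3 were *P3h1*, from 6.40 ± 1.06 to 9.83 ± 1.29 CPM (log2 fold change 0.61, adjusted p = 0.0321), *Crtap*, from 88.3 ± 4.79 to 108 ± 2.45 CPM (0.29, adjusted p = 0.0327), and *Ppib*, from 539 ± 51.1 to 701 ± 93.3 CPM (0.38, adjusted p = 0.0339; SD, n = 4 in both groups). Their products form the complex that hydroxylates certain prolines of collagen at carbon 3. *Crtap* was also the gene that was higher in ASP shGRIN2D, at 115 ± 3.95 CPM (SD, n = 3; 0.38, adjusted p = 0.0202). *Ppib* was higher in ASP shDHPS than in ASP shGRIN2D, too (0.44, adjusted p = 0.0319). Without replicate 1 *P3h1* and *Crtap* still passed in ASP shDHPS against ASP shSCR (0.69 and 0.29, adjusted p = 0.0229 and 0.0414). *Ppib* did not pass in either comparison (0.30 and 0.36, adjusted p = 0.0865 and 0.0708). The median log2 fold change of the 18 was -0.012 in ASP shDHPS and 0.020 in ASP shGRIN2D, both against ASP shSCR. The chaperone *Serpinh1* and the prolyl 4-hydroxylase subunit *P4hb* passed in no comparison.

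Of 17 genes of export, propeptide cleavage and crosslinking, 14 were in the table and *Pcolce* was the only one called, in ASP shDHPS against ASP shSCR (4.22% of all genes called) and against ASP shGRIN2D (2.82%). It encodes an enhancer of the enzyme that trims the end of fibrillar procollagens, and it was lower in ASP shDHPS, at 67.9 ± 5.78 CPM against 145 ± 16.5 CPM in ASP shSCR (SD, n = 4 each; log2 fold change -1.10, adjusted p = 7.53e-07). It was lower in ASP shDHPS than in ASP shGRIN2D as well (-0.80, adjusted p = 4.12e-05). Without replicate 1 both calls held (-1.05 and -0.75), and *Loxl4*, a crosslinking oxidase, was called higher than in ASP shSCR (0.44, adjusted p = 0.0302). *Bmp1*, which encodes that enzyme, had a fold of -0.34 in ASP shDHPS (adjusted p = 0.0995), or -0.21 without replicate 1.

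Among collagen receptors and uptake genes, 7 of 10 were in the table, and 1 was called in each comparison with a knockdown (1.16%, 4.22% and 2.82% of all genes). *Itga10*, an integrin chain, was higher in ASP shGRIN2D than in ASP shSCR, at a low level (2.72 ± 0.434 CPM, SD, n = 3, against 0.998 ± 0.374 CPM, SD, n = 4; 1.43, adjusted p = 0.0410). *Ddr2*, a receptor kinase for fibrillar collagen, was lower in ASP shDHPS than in ASP shSCR (-0.36, adjusted p = 0.0456), but not past the threshold without replicate 1 (-0.38, adjusted p = 0.0584). *Itga1*, an integrin chain that binds collagen IV, was lower in ASP shDHPS than in ASP shGRIN2D (-0.70, adjusted p = 0.00311), and without replicate 1 as well (-0.61, adjusted p = 0.00925). Of 12 matrix partners 8 were in the table, with 0 called against ASP shSCR in either knockdown. Between the knockdowns, where 2.82% of all genes were called, 2 were lower in ASP shDHPS: fibronectin *Fn1* (-0.88, adjusted p = 0.0473) and tenascin X *Tnxb* (-1.31, adjusted p = 0.0157). Without replicate 1 *Tnxb* still passed (-1.04, adjusted p = 0.0297) and *Fn1* did not (-0.67, adjusted p = 0.0976). No gene of the 4 lists was called for aspartate.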

How the data were processed

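Polyadenylated RNA of the cytosolic lysate was sequenced from 14 spheroid samples with a stranded kit. Per the submitters' processing notes and the study's methods, reads were trimmed with Trim Galore 0.6.6, checked with FastQC 0.11.9, mapped to GRCm39 with STAR 2.6.1 and quantified with Salmon 1.4.0. The deposited counts are these estimates, rounded to whole numbers by the authors, who also removed genes without expression. Salmon divides reads among similar transcripts by estimation. The authors' own fold changes from DESeq2 1.34.0 and gene set scores were not used.

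Groups came from the sample descriptions, and each count column carried 1 sample's name. Where the numbered samples are independent spheroid pellets, as the study's methods say of the polysome fractions, p-values measure the spread between pellets. Replicates differed by 7.69 to 41.8 times the sampling variance (chi-square per degree of freedom, 18 pairs). Counts were tested with edgeR 4.0.16 in R 4.3.3 (quasi-likelihood test, TMM, 1 model of all 14 libraries with a term for group), with Benjamini-Hochberg adjustment over 19525 genes. Called means an adjusted p below 0.05. CPM were scaled by TMM factors, and principal components used log2 CPM (prior count 2). No fold is given for a gene that never exceeded 3 counts, and a fold against a group at 0 is a bound against 3 counts. Counting limits precision for low genes. Simulated data were used to test the scripts.

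The members, gene lists and alternatives were chosen with earlier results of these data known. Named with values in every library were collagens called in any comparison, the 2 highest of each class per kilobase, *Col1a1*, *Col6a1* and partner chains. Transcript lengths came from GENCODE annotation of GRCm38, and promoters from RefSeq GRCm38.p6, so coordinates are in that build and not in the one of the counts. Alternatives were DESeq2 1.42.0, RLE factors, library size alone, filterByExpr, a robust prior, separate fits of each pair of groups, the replicate block and left-out libraries. The helper genes, medians and overlaps without ASP shDHPS replicate 1, and *Col8a1* without shSCR libraries numbered 2, were added after seeing the data.

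In ASP shSCR and NoASP shSCR, libraries that share a number departed from their group means together, with correlations of 0.514, 0.287 and 0.203, so the numbers pair these libraries by the data alone, since no label explains them. With the replicate block 0 collagens were called for aspartate, as without it.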

Additional observations from a re-analysis of the deposited data

Results flagged for a closer look

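A sample far from the rest of its group of 4 was found in 6 of 34 groups of values tested. These groups share libraries, and class sums contain the genes, so the count cannot be set against a chance rate. In ASP shDHPS replicate 1, *Col6a1* was at 32.9 CPM (the other 3 libraries 57.2 to 62.0 CPM) and *Col7a1* at 15.5 CPM (29.0 to 30.2 CPM). The summed level of collagen VI was 34.7 CPM (62.0 to 66.9 CPM) and that of the other types 358.5 CPM (618.2 to 668.7 CPM) in the same library. Its *Col5a3* was at 0.0525 CPM, which is 1 count where the other 3 had 0, a pattern that is always flagged. In ASP shDHPS replicate 3, *Col1a1* was at 0.432 CPM (the other 3 at 0.133 to 0.160 CPM), which is 8 counts against 2 to 3. What set ASP shDHPS replicate 1 apart was not tested.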

How the results depend on the processing

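Of 549 recomputed fold changes, 489 kept their direction and side of the threshold, 35 changed sign, and 0 of those were of a gene called in that comparison. The *Col6a1* call in ASP shGRIN2D held in all 15 alternatives (0.79 to 0.87), *Col5a1* between the knockdowns in all 14, *Col6a1* there in 12 and *Col6a2* in 6 of 14, and *Col7a1* in ASP shDHPS in 14 of 16. The cause of the differences was not tested. Scalings moved the median of all genes by at most 0.0222. Low counts limit most fibrillar chains.

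With each pair of groups fitted alone, 5 collagens were called in ASP shGRIN2D and 5 between the knockdowns, where 374 and 708 of 19525 genes were called. With a robust prior 0 were called in ASP shDHPS against ASP shSCR (*Col7a1*, adjusted p = 0.0915), where 822 of all genes were called. DESeq2 called 3 in ASP shGRIN2D, and 442 of the 12705 genes to which it gave an adjusted p. With both shSCR libraries numbered 2 left out, 2 collagens (*Col6a1* and *Col8a1*) were called in ASP shGRIN2D, and 240 of all genes. *Col1a1* was then at 0.018 for aspartate, and *Col18a1* and *Col4a2* at 0.018 and 0.043 in ASP shGRIN2D. With the replicate block, 5 were called in each of ASP shGRIN2D and ASP shDHPS against ASP shSCR and 5 between the knockdowns, of which 1, 1 and 3 were called without it. Calls rose over all 19525 genes too, to 611, 2150 and 1468 from 226, 824 and 550. Same-numbered libraries correlated at -0.117 to 0.042, 0.0404 to 0.258 and 0.00533 to 0.231 there, and 1 of 6, 5 of 8 and 2 of 6 libraries correlated best with their own number. Under the block the aspartate folds of *Col16a1*, *Col18a1* and *Col5a1* were 0.0022, 0.059 and 0.033 (within the 7 shSCR libraries 0.013 for *Col18a1* and 0.0035 for *Col5a1*), and those of *Col18a1* and *Col4a2* in ASP shGRIN2D 0.0039 and 0.061. No paired design is stated, and among the collagens recomputed the block changed no other direction.

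Leaving out 1 library at a time gave 0 to 2 calls in ASP shDHPS against ASP shSCR, 1 to 3 between the knockdowns, and 1 to 1 in ASP shGRIN2D. Calls over all genes were then 412 to 894, 209 to 577 and 86 to 208 in the same order. For aspartate the folds then ranged from -0.093 to 0.013 for *Col18a1*, -0.75 to 0.49 for *Col1a1*, -0.17 to 0.0023 for *Col5a1* and -0.43 to 0.093 for *Col6a2*. In ASP shGRIN2D they ranged from -0.093 to 0.018 for *Col18a1* and -0.17 to 0.11 for *Col4a2*. In ASP shDHPS against ASP shSCR they were -0.21 to 0.067 for *Col18a1*, -0.32 to 0.029 for *Col4a1*, -0.28 to 0.054 for *Col4a2* and -0.25 to 0.19 for *Col6a2*. Between the knockdowns they were -0.17 to 0.11 for *Col18a1*, -0.17 to 0.17 for *Col4a1*, -0.26 to 0.0675 for *Col4a2* and -0.20 to 0.072 for *Col7a1*.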
